A study of Mus musculus with 2 samples.

Results

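A set of acute-phase genes was followed through pancreatic tumours of KPPC mice given vehicle or takinib. They are the serum amyloid A genes Saa1, Saa2 and Saa3, haptoglobin (Hp), orosomucoid 1 (Orm1), the peptidoglycan recognition gene Pglyrp1 and the mouse gene U90926, that is 7 of the 32285 genes listed for each library. They were found by gene symbol in both count matrices, and each symbol matched a single row. The set was drawn up with measured values of these same libraries known, namely their high levels in the takinib library relative to vehicle. The difference between the libraries in these genes is therefore given as a description, with no test, and supports nothing.

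KPPC is a genetically engineered mouse model of pancreatic cancer, and its alleles and Cre driver are not given in the labels. The mice were 6 weeks old and were treated over 14 days, either with vehicle or with 50 mg/kg of takinib, and enzymatically dissociated tumours were profiled by droplet single-cell RNA sequencing, in which each captured transcript is counted once by its unique molecular identifier (UMI). Takinib is an inhibitor of the kinase TAK1 (Map3k7), which relays signals from interleukin-1, tumour necrosis factor and Toll-like receptors to NF-kB and to the JNK and p38 kinases. Each group holds 1 library, and the number of mice behind it is not stated. No difference between the groups therefore has a replicate check, and all 95% intervals, given in square brackets, cover counting error only.

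After filters, 9558 vehicle cells with 42000538 UMIs and 25183 takinib cells with 119726977 UMIs were kept. The libraries differed in other ways than treatment. The median cell had 3556 UMIs and 8.70% mitochondrial UMIs in vehicle, against 2887 UMIs and 1.79% in takinib. Y-linked transcripts without Xist were found in 3087 vehicle cells and in 0 takinib cells, so male cells were seen in vehicle alone. There were 20 vehicle and 11740 takinib neutrophil-like cells. Before doublets were removed, 400 of the barcodes that passed the cell filters occurred in both libraries. The effects of treatment, sex and library preparation cannot be told apart. Cells were grouped into classes by marker genes after clustering without the members, and levels are given as counts scaled to a library total of 1000000 UMIs (CPM), summed over the cells of 1 class in 1 library.

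Acute-phase proteins are secreted in large amounts during inflammation, mostly by the liver, when interleukin-1, interleukin-6 and related cytokines act through NF-kB, STAT3 and C/EBP transcription factors. Saa1 and Saa2 encode the serum amyloid A proteins that circulate on high-density lipoprotein, whereas Saa3 is known in mice mainly from macrophages, adipocytes and epithelia outside the liver. Haptoglobin binds free haemoglobin and is also stored in neutrophil granules. Orosomucoid is a plasma carrier of small lipophilic molecules, and Pglyrp1 is an antibacterial protein of neutrophil granules that binds bacterial peptidoglycan. The function of U90926 is little known.

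On the GRCm38 build, Saa3 (chr7:46711998-46715700, minus strand), Saa1 (chr7:46740497-46742980, minus strand) and Saa2 (chr7:46751790-46754313, plus strand) lie in 1 block of 42.3 kb together with Saa4. Pglyrp1 (chr7:18871331-18890459, plus strand), Hp (chr8:109575128-109579172, minus strand), Orm1 (chr4:63344560-63348163, plus strand) and U90926 (chr5:92209893-92215408, minus strand) lie elsewhere, and none of the 7 overlaps another annotated gene. Saa1 and Saa2 transcripts are 93.5% identical, and Orm1 is 91% identical to Orm2 and 86.1% to Orm3. How reads were divided between these near copies is not given in the sources used here, so the split between Saa1 and Saa2, and the level of Orm1, are uncertain.

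The promoters of the serum amyloid A genes are shown because Saa1 and Saa2 share almost the same start region whereas Saa3 does not, and the genes differed in the cells that held them. Each is a RefSeq window on GRCm38.p6 of 250 bases before to 50 bases after the transcript start, with matches to the C/EBP motif TTGCNNAA, on either strand, in capitals. The windows are chr7:46715627-46715926 for Saa3, chr7:46742931-46743230 for Saa1 and chr7:46751583-46751882 for Saa2.
Saa3: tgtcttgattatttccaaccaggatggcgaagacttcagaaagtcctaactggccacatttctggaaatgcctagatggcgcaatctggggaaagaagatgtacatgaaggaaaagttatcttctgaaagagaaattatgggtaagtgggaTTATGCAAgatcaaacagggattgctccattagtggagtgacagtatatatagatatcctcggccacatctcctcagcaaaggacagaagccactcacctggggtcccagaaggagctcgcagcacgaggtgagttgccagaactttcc
Saa1: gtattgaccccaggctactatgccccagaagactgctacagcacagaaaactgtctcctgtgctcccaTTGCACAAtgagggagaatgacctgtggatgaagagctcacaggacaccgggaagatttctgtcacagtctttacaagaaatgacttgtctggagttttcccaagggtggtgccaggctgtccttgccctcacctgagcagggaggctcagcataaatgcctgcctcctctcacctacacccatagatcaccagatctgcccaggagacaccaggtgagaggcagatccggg
Saa2: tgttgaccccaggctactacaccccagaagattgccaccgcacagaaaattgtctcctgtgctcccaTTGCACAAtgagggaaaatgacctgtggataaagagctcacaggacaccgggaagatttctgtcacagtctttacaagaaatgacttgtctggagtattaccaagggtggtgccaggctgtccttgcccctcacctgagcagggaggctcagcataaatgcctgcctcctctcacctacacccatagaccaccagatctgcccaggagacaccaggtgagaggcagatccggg
The Saa1 and Saa2 windows were 95.7% identical. The match begins 182 bases before the Saa1 start, 183 bases before the Saa2 start and 99 bases before the Saa3 start, where it reads TTATGCAA on the strand of the gene. Such a match was present in 10.8% of 32851 RefSeq promoters of the same length. A match to the NF-kB motif was found in the Pglyrp1 window (chr7:18884440-18884739), where GGAAAGTCCC begins 93 bases before the start, and in 8.5% of all promoters. The U90926 window (chr5:92215359-92215658) held neither motif, and none of these 5 windows held the STAT motif TTCNNNGAA, which was in 8.3% of all promoters. A match is a description of the letters and not a site of binding.

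Over all kept cells, every member stood higher in the takinib library. Saa3 was at 365 CPM in vehicle and 16279 CPM in takinib, a ratio of 44.5 [43.8, 45.3]. Hp was at 72.2 CPM in vehicle and 1298 CPM in takinib, a ratio of 18.0 [17.3, 18.6]. Pglyrp1 had the smallest ratio of the 7, from 140 to 694 CPM, or 4.97 [4.84, 5.11]. These whole-library values mix levels within cells with the makeup of the library, since neutrophil-like cells made up a far larger part of the takinib cells.

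Of the 4 rarer members, 3 had at most 14 vehicle UMIs. Saa1, with 462 vehicle UMIs in 99 cells, was at 11.0 CPM there and 90.5 CPM in takinib, a ratio of 8.23. Orm1 had 14 UMIs in vehicle and 2693 in takinib, a ratio of 67.5 [40.1, 124], and Saa2 had 2 and 857, a ratio of 150 [41.5, 1243]. U90926 had 0 UMIs in vehicle, where 3 counts, the floor used here for a count of 0, correspond to 0.0714 CPM, and 10326 UMIs (86.2 CPM) in takinib. The near relatives were almost undetected in both libraries, with vehicle and takinib counts of 0 and 5 for Saa4, 0 and 17 for Orm2, and 0 and 4 for Orm3. Among hepatocyte transcripts, vehicle and takinib UMIs were 6 and 20 for Alb, 0 and 3 for Fgb and 46 and 32 for Ahsg. Ttr was higher, with 574 and 4348, and the adipocyte gene Adipoq had 7 and 140.

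**Figure D1:**
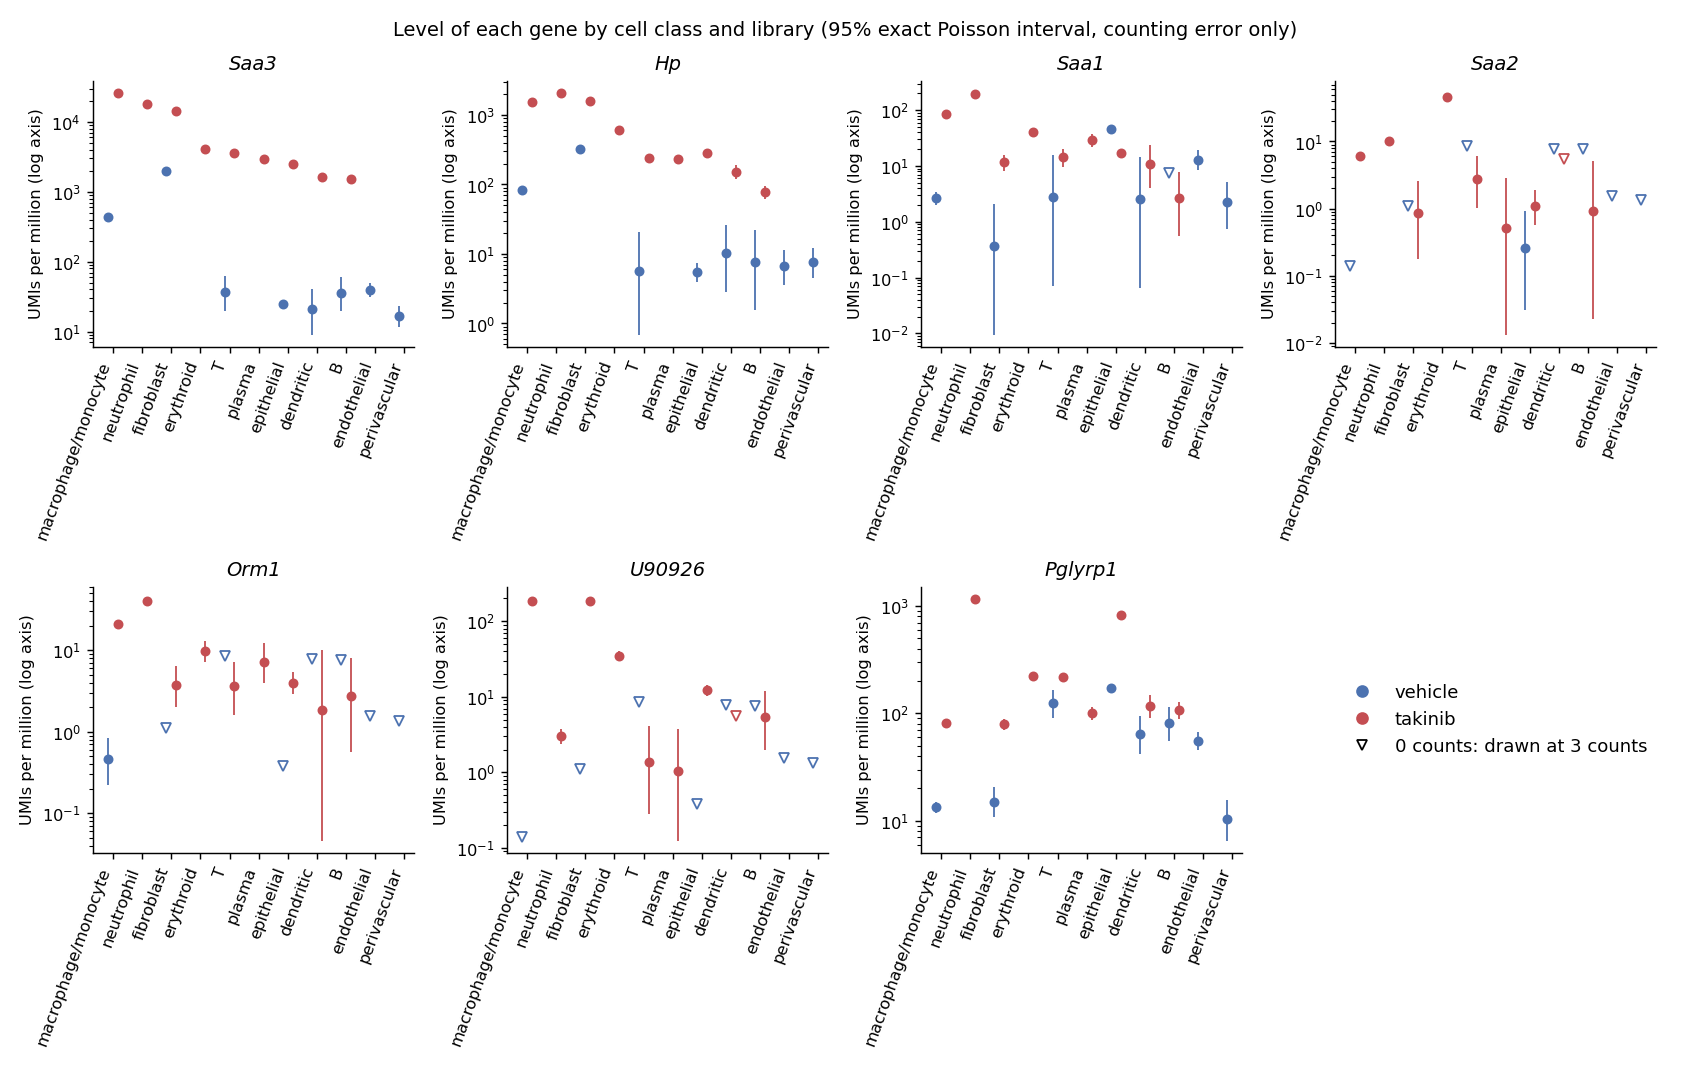
Level of each member (CPM, log axis) in every cell class with at least 100 cells in a library, vehicle and takinib, with exact Poisson intervals. Open triangles mark 0 counts and are drawn at the level of 3 counts. Saa3 and Hp stood highest in takinib macrophage/monocyte-like, neutrophil-like and fibroblast-like cells, and U90926 had no vehicle count in any class.

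Macrophage/monocyte-like cells held the largest number of Saa3 UMIs in takinib, 1280328 of 1949075, and all 7 members stood at least 2-fold higher there. Saa3 was at 441 CPM [432, 450] in 5030 vehicle cells and at 25793 CPM in 7328 takinib cells, a ratio of 58.5 [57.4, 59.7]. Hp was at 83.2 CPM in vehicle and 1519 CPM in takinib, a ratio of 18.3 [17.4, 19.1]. All 7 of 7 counted members (at least 50 UMIs in a library of the class) were past 2-fold higher, where 6.68% of 12044 counted genes were 2-fold higher and 6.03% were 2-fold lower. Since the members were selected on this contrast, nothing is read from that count.

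The secreted carriers and defence proteins of the set were less abundant in these cells. Saa1 was at 2.62 CPM in vehicle and 85.2 CPM in takinib, a ratio of 32.6 [25.1, 43.1]. Saa2 had 0 vehicle UMIs and 300 takinib UMIs (6.04 CPM), at least 43.9-fold higher against a floor of 3 counts per library. Orm1 had 10 UMIs in vehicle and 1033 in takinib, a ratio of 45.3 [24.5, 94.8]. U90926 had 0 UMIs in vehicle and 9234 in takinib (186 CPM), at least 1350-fold higher against the same floor. These large ratios rest on very low vehicle levels, and with 10 CPM added to both libraries they were 1.60 for Saa2, below 2-fold, 2.95 for Orm1, 7.55 for Saa1 and 19.6 for U90926. Pglyrp1 was at 13.4 and 81.8 CPM, a ratio of 6.1 [5.42, 6.89], and its takinib level was below the 107 CPM of B-like cells.

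Different clusters made up this class in the 2 libraries. Clusters led by H2-Ab1 and H2-Eb1 (2772 cells) and by Apoe, Ccl8 and C1qc (1402 cells) held most vehicle cells. In takinib the most numerous was a cluster led by F13a1, Ptges, Pf4 and Arg1, with 2218 cells against 3 in vehicle. F13a1 encodes a clotting factor subunit, Ptges makes prostaglandin E and Arg1 is arginase 1. This cluster was at 70789 CPM of Saa3 and 3760 CPM of Hp in takinib, so that it held 52.5% of all takinib Saa3 UMIs, 35.0% of Hp and 72.4% of U90926. In the median takinib cell of the cluster, Saa3 made up 5.17% of all UMIs, with quartiles of 1.81% and 10.1% and a highest cell at 35.6%. Its Saa1 level was 246 CPM and its Orm1 level 36.4 CPM, whereas Pglyrp1 was at 74.7 CPM. Without this cluster, an alternative chosen after seeing the data, the macrophage/monocyte-like ratio was 16.8 for Saa3, 7.19 for Hp, 7.24 for Saa1 and at least 362 for U90926. With macrophage and monocyte markers held apart, also chosen after seeing the data, the ratios were 20.7 for Saa3, 8.93 for Hp and 8.69 for Saa1.

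The other macrophage/monocyte-like clusters held less Saa3. In takinib, a cluster led by H2-M2, Ccl5 and Marco (1047 cells, 6 in vehicle) was at 14196 CPM of Saa3 and 1159 CPM of Hp. A monocyte cluster led by Vcan, Ccr2 and Ly6c2 was at 37.3 CPM of Saa3 in 75 vehicle cells and 7956 CPM in 830 takinib cells. Its Hp level was 274 CPM (vehicle) and 1231 CPM (takinib), and its takinib U90926 level was 0.715 CPM. Hp was thus present in the vehicle monocytes, where Saa3 had 6 UMIs in all.

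Within the 3 clusters that were well filled in both libraries, differences were smaller and went the same way. The Apoe, Ccl8 and C1qc cluster was at 1179 CPM of Saa3 in vehicle and 7774 CPM in takinib, a ratio of 6.60. The H2-Ab1 and H2-Eb1 cluster was at 178 and 4100 CPM, a ratio of 23.1. The cluster led by Gpnmb, Atp6v0d2 and Lpl was at 185 and 2082 CPM, a ratio of 11.2. Its takinib level lay between the 1506 CPM of B-like cells and the 3622 CPM of T-like cells. Hp in these clusters was 1.95-fold, 3.12-fold and 4.27-fold higher in takinib, in the same order. Its takinib levels were 272, 205 and 201 CPM, against 244 CPM in T-like and 77.0 CPM in B-like cells. Vehicle Saa3 UMIs lay mainly in the Apoe, Ccl8 and C1qc cluster (42.7%) and in fibroblast-like cells (34.5%).

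**Figure D2:**
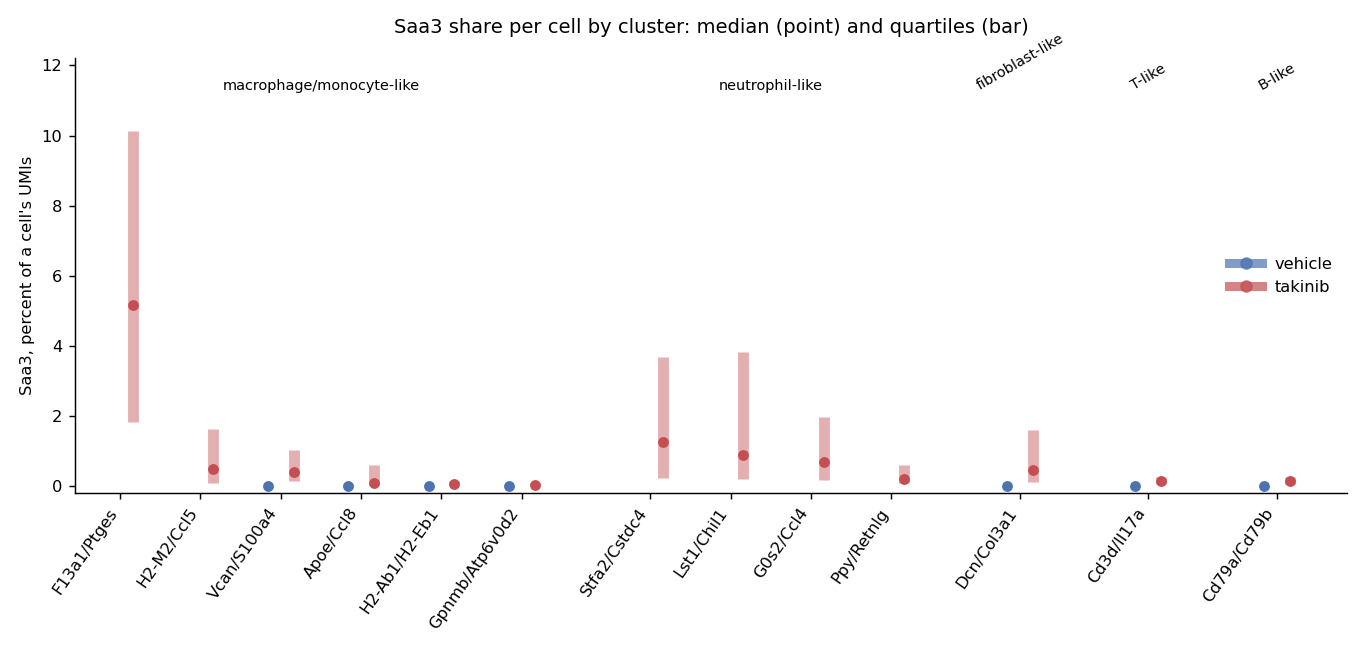
Saa3 as a percentage of each cell's UMIs, by cluster (named by 2 leading genes) and library, for clusters with at least 50 cells in it (point, median; bar, quartiles). The vehicle medians were all 0. In takinib the F13a1 and Ptges macrophage cluster had a median of 5.17%, and T-like and B-like cells had medians of 0.126% and 0.138%.

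The sex of the cells was examined beside these values. Vehicle macrophage/monocyte-like cells with Xist and no Y-linked UMI were at 408 CPM of Saa3, and those with Y-linked UMIs and no Xist were at 391 CPM. Against the former alone the takinib ratio was 63.3. For Hp the vehicle level of cells with Xist and no Y-linked UMI was 53.9 CPM, and the ratio against them was 28.2.

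Neutrophil RNA in this class also moved with the libraries. All 10 of 10 neutrophil markers were detected, and their sum was 475 CPM in macrophage/monocyte-like cells of vehicle against 8940 CPM in those of takinib. When a neutrophil profile scaled to S100a8 and S100a9 was subtracted, Pglyrp1 in these cells was at 0.231 times its vehicle level, the reverse of its direction before subtraction. The ratio of Saa3 UMIs to S100a8 and S100a9 UMIs in takinib was 320 per 100 in macrophage/monocyte-like cells and 177 per 100 in fibroblast-like cells, against 15.7 per 100 in neutrophil-like cells.

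U90926 UMIs were concentrated in few cells. In takinib, 472 cells held its 10326 UMIs, and 30 cells held 50% of them, with 401 UMIs in the highest cell. The corresponding numbers of cells that held 50% of the UMIs were 1066 for Saa3, 1783 for Hp, 1229 for Pglyrp1, 304 for Orm1, 287 for Saa1 and 34 for Saa2. Saa3 was present with at least 1 UMI in 92.3% of takinib cells and U90926 in 1.87%. In vehicle, 13.6% of cells had a Saa3 UMI, and 40 cells held 50% of its UMIs.

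**Figure D3:**
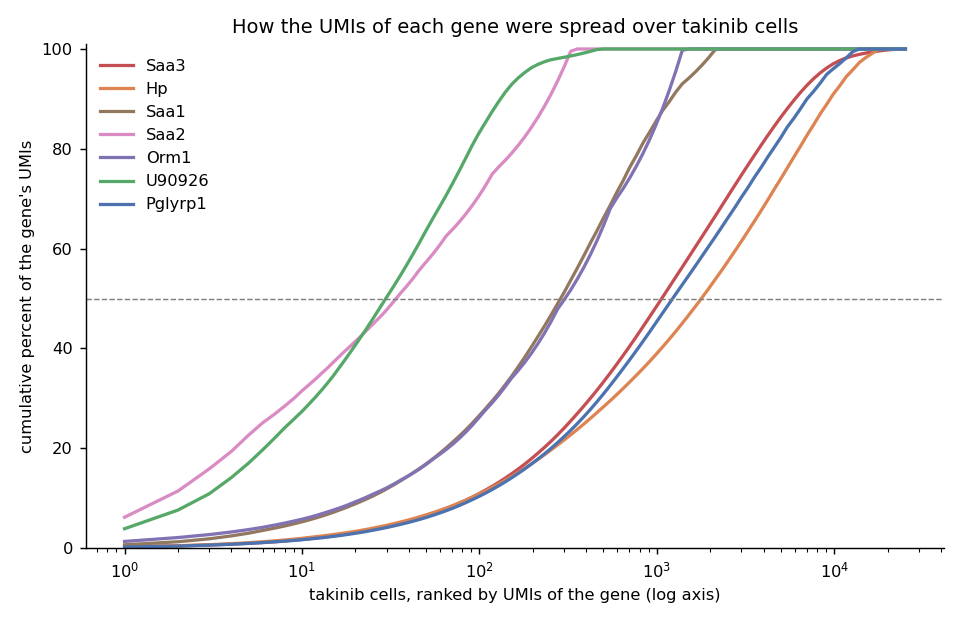
Cumulative percentage of each member's takinib UMIs over cells ranked by their UMIs of that gene (number of cells, log axis); the dashed line marks 50%. U90926 reached 50% in 30 cells and Saa2 in 34, whereas Saa3 needed 1066 cells and Hp 1783.

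In the F13a1 and Ptges cluster, 223 takinib cells had a U90926 UMI, with a median of 14, and 1995 had none. Counted per 1000000 UMIs of all genes but the members, Saa3 was at 129861 in the cells with U90926 and 69971 in those without. Hp was at 7708 and 3616, and Saa1 at 586 and 227, on the same scale. Cells with U90926 were deeper, with a median of 6956 UMIs against 5861. Saa3 was higher in the cells with U90926 in each of 4 depth classes of the cluster, at 110249 against 57916 in the shallowest and 122294 against 71475 in the deepest. Hp was also higher in each, at 8548 against 3251 in the shallowest and 7091 against 3480 in the deepest. Saa3 and Hp were higher in the cells with U90926 of the H2-M2, Ccl5 and Marco cluster too, at 41753 against 12304 and 4111 against 950 in 53 cells. This did not hold in every cluster: of 11 takinib clusters with at least 10 such cells, Saa3 was higher in the cells with U90926 in 6 and lower in 5. The 5 were the S100g and Prap1 cluster and the Camp, Retnlg, Stfa2 and Lst1 clusters of neutrophils. In the Lst1 cluster, for example, Saa3 was at 18789 with and 29008 without. The median cell with U90926 had 1 UMI of it in all 5. The same median was found in the Gpnmb, Tff2 and G0s2 clusters, where Saa3 was higher with U90926, so it does not set the 5 apart. In fibroblast-like cells Saa3 was at 17393 in the 19 cells with U90926 and 14064 in the others, and Hp was lower in the cells with it, at 1441 against 1616. All these cells come from 1 library, so the values describe that library.

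Neutrophil-like cells of the takinib library were at 18250 CPM of Saa3 and 2045 CPM of Hp. The 20 vehicle neutrophil-like cells had 2 Saa3 UMIs (78.1 CPM) and 20 Hp UMIs, or 781 CPM [477, 1207], and are too few for a comparison. Pglyrp1 was at 1211 CPM in these vehicle cells and 1153 CPM in takinib. Among the rarer members, takinib neutrophil-like cells had 198 CPM of Saa1, 40.4 CPM of Orm1, 10.2 CPM of Saa2 and 3.0 CPM of U90926.

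The members differed along the clusters of takinib neutrophils, which are described here by their granule genes. Neutrophil granule proteins are made in waves, with primary granule genes first, secondary granule genes next, and gelatinase (Mmp9) and surface receptors such as Cxcr2 late. A cluster led by Camp, Ngp and Ltf, left unnamed by the marker rule, had 610 takinib cells and summed to 67110 CPM over the secondary granule list, the highest of 5 clusters, which spanned 8131 to 21311 CPM otherwise. Pglyrp1 was highest in it at 4277 CPM, and was at 4162 CPM in its 13 vehicle cells. Saa3 was lowest there, at 2966 CPM in takinib and 0 UMIs in the vehicle cells. Hp was at 1539 CPM in takinib and 857 CPM in vehicle.

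Saa3 was highest in the neutrophil-like clusters led by Lst1 and Chil1 (28032 CPM) and by Stfa2 and Cstdc4 (25656 CPM). It was at 14590 CPM in the cluster led by G0s2 and Ccl4, and at 6744 CPM in the cluster led by Ppy and Retnlg, which had the highest tertiary granule sum, at 17277 CPM. Hp varied less across the 5 clusters, from 1539 to 2610 CPM. Saa1 ran from 28.3 CPM in the Camp cluster to 351 CPM in the Stfa2 cluster. Orm1 was at 78.8 CPM in the Camp cluster, 79.5 CPM in the Lst1 cluster and 9.97 CPM in the Retnlg cluster, so that its order followed neither Saa3 nor Pglyrp1.

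**Figure D4:**
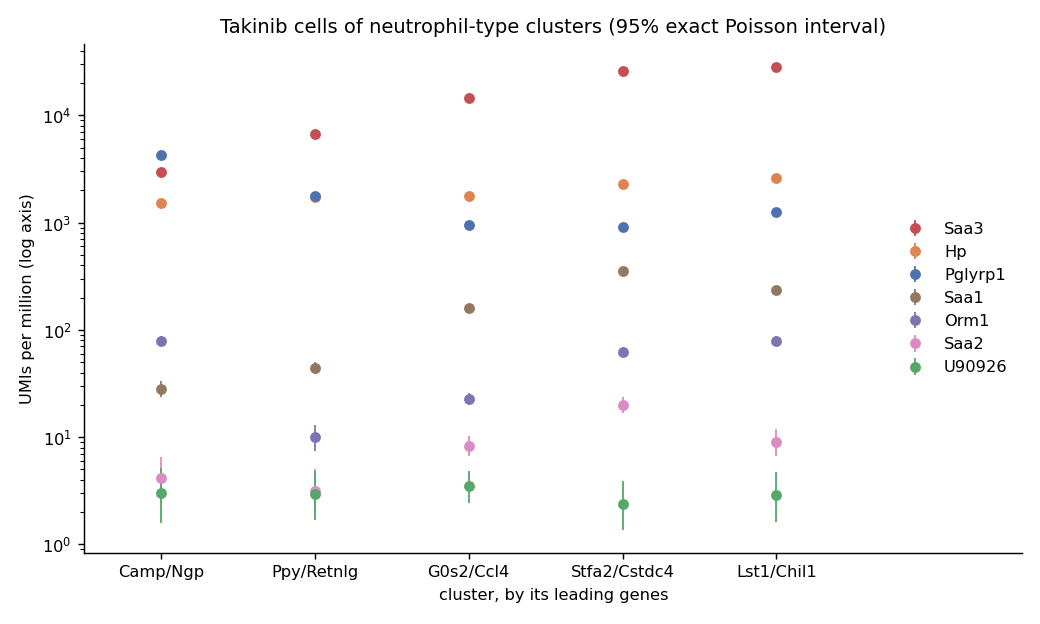
Levels of the members (CPM, log axis) in 5 takinib clusters of neutrophils, named by leading genes, with exact Poisson intervals. Pglyrp1 was highest in the Camp and Ngp cluster (4277 CPM), where Saa3 was lowest (2966 CPM), and Saa3 was highest in the Lst1 and Chil1 cluster (28032 CPM).

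Fibroblast-like cells had the highest vehicle level of Saa3 among classes of at least 100 cells. Saa3 was at 1953 CPM [1900, 2006] in 645 vehicle cells and 14347 CPM in 308 takinib cells, a ratio of 7.35 [7.14, 7.56]. Hp was at 319 CPM in vehicle and 1563 CPM in takinib, a ratio of 4.89 [4.55, 5.26]. U90926 had 0 UMIs in vehicle and 629 in takinib (183 CPM), at least 165-fold higher, and 19 takinib cells held them. With every cell thinned to 1000 UMIs, which weights cells equally, that bound was 13.3. Pglyrp1 was at 15.1 and 79.6 CPM, a ratio of 5.26 [3.78, 7.5], and stood at 0.0667 times its vehicle level after the neutrophil profile was subtracted. Saa1 had 1 UMI in vehicle and 40 in takinib, too few to be counted. All 4 counted members were past 2-fold higher, where 7.23% of 7968 counted genes were higher and 11.4% were lower.

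Saa3 was spread unevenly among these cells. In the median takinib fibroblast-like cell it made up 0.459% of UMIs, with quartiles of 0.099% and 1.58%, and the median vehicle cell had none. Vehicle fibroblast-like cells with Xist and no Y-linked UMI were at 1219 CPM of Saa3, and those with Y-linked UMIs and no Xist at 2368 CPM. The takinib ratio against the former was 11.8. The sum of the 10 neutrophil markers was 141 CPM in fibroblast-like cells of vehicle against 8927 CPM in those of takinib, and their part in the Saa3 and Hp values was not tested beyond the subtraction.

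In epithelial-like cells Pglyrp1 stood higher and Saa1 lower in takinib. Pglyrp1 was at 173 CPM in 1173 vehicle cells and 821 CPM in 994 takinib cells, a ratio of 4.75 [4.48, 5.03]. In the cluster led by Cdkn2a, Hmga2 and Krt7 it was at 110 CPM in vehicle and 842 CPM in takinib, a ratio of 7.66. A gastric-type cluster led by Tff2 and Reg1, left unnamed by the marker rule, was at 964 and 1548 CPM, a ratio of 1.61, and held 61.7% of all vehicle Pglyrp1 UMIs. Pglyrp1 UMIs in vehicle were thus mainly outside neutrophils.

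Saa1 was the only counted member with a lower takinib level in any of the 6 classes that had 100 cells or more per library. In epithelial-like cells it was at 46.7 CPM in vehicle and 17.3 CPM in takinib, a ratio of 0.37 [0.31, 0.44]. A cluster led by Mptx1, Spink4 and Muc2, genes of intestinal goblet cells, had 88 vehicle cells and 11 takinib cells. Its vehicle level was 591 CPM, and it held 77.3% of all vehicle Saa1 UMIs, whereas its takinib cells had 0 UMIs. In vehicle as a whole, 5 cells held 50% of the Saa1 UMIs. In the Cdkn2a, Hmga2 and Krt7 cluster the direction was the opposite, at 1.06 CPM in vehicle and 15.9 CPM in takinib, a ratio of 15. The epithelial-like ratio was also above 1 with cells of at most 10% mitochondrial UMIs (1.43) and against vehicle cells with Xist and no Y-linked UMI (8.03). After the neutrophil profile was subtracted, takinib Saa1 was at 0 CPM in these cells.

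The other members of epithelial-like cells stood higher in takinib. Saa3 was at 24.5 CPM in vehicle and 2463 CPM in takinib, a ratio of 100 [87.2, 116]. Hp was at 5.49 and 285 CPM, a ratio of 52.0, and U90926 had 0 and 135 UMIs, at least 32.0-fold higher. The takinib level of Saa3 lay between the 1506 CPM of B-like cells and the 3622 CPM of T-like cells. That of Hp was near the 244 CPM of T-like cells and above the 77.0 CPM of B-like cells. The neutrophil marker sum was 114 CPM for vehicle against 12734 CPM for takinib. With the neutrophil profile subtracted the ratios were 28.8 for Saa3 and 18.8 for Hp. Against vehicle cells with Xist and no Y-linked UMI they were 382 for Saa3 and 8.39 for Pglyrp1, and the Pglyrp1 ratio was 2.73 when every cluster was named by its highest marker score. The bound for U90926 was 2.36 with thinned cells. Of 5 counted members, 4 were past 2-fold higher and 1, Saa1, past 2-fold lower, where 7.63% of 11366 counted genes were higher and 7.76% lower.

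T-like and B-like cells, which are not known to make serum amyloid A, gave the level of these transcripts outside their sources. Saa3 was at 36.7 CPM in vehicle and 3622 CPM in takinib T-like cells, a ratio of 98.7 [57.7, 186]. In B-like cells it was at 35.5 and 1506 CPM, a ratio of 42.4 [25.2, 77.7]. The share of T-like cells with a Saa3 UMI was 5.94% in vehicle and 87.8% in takinib, at median depths of 1357 and 1686 UMIs. After thinning every cell to 1000 UMIs the shares were 4.57% and 73.0%. In B-like cells, of median depths 1546.5 and 1341, they were 6.31% and 85.5%, and 4.85% and 74.0% after thinning.

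In the 6 classes that had 100 cells or more per library, 84.3% to 96.4% of takinib cells had a Saa3 UMI. The thinned share in takinib macrophage/monocyte-like cells, 69.6%, was below that of T-like cells although their CPM was higher, so shares of cells give no order of classes. Fibroblast-like cells (80.5%) and neutrophil-like cells (88.2%) were above both lymphocyte classes. Dendritic-like cells, at 20.7 CPM in vehicle and 1654 CPM in takinib (79.9 [40.4, 186]), were within the range of the lymphocyte classes, as were epithelial-like, plasma-like (2932 CPM) and endothelial-like cells (2231 CPM). Those class levels did not exceed those of lymphocytes, and how much of them was free RNA was not tested. Within the epithelial-like class, a cluster led by Gkn2, Gkn1 and Tff1 was above that range, at 7395 CPM in 217 takinib cells. Takinib barcodes below the limit of 1000 UMIs were at 8472 CPM of Saa3 and 1055 CPM of Hp. Vehicle barcodes with 1 to 100 UMIs were at 176 CPM and 65.9 CPM.

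Hp in lymphocytes was lower and its counts were few. It was at 5.64 and 244 CPM in T-like cells, a ratio of 43.2 [11.9, 357], and at 7.61 and 77.0 CPM in B-like cells, a ratio of 10.1 [3.35, 50.0]. After subtraction of the neutrophil profile, which in vehicle rests on 20 cells, these ratios were 5.52 [0.92, 225] and 2.33 [0.69, 12.3], and those of Saa3 were 48.1 and 28.2. In dendritic-like cells the ratio of Hp was 14.7, and 5.38 after subtraction, where that of Saa3 was 39.0.

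The ratios of Pglyrp1 in these classes were below 2. It was at 124 and 216 CPM in T-like cells, a ratio of 1.74 [1.28, 2.43], at 81.2 and 107 CPM in B-like cells, a ratio of 1.32 [0.88, 2.01], and at 64.7 and 117 CPM in dendritic-like cells, a ratio of 1.81. These directions were not stable to the processing, since after subtraction the ratio was 0.80 in T-like and 0.98 in dendritic-like cells, and with thinned cells it was 0.79 in dendritic-like cells. The B-like ratio was 0.93 after subtraction and 5.72 with every cluster named, the T-like ratio 2.07 with doublets kept, and the dendritic-like ratio 2.1 at Leiden resolution 2. In each of these 3 classes 2 of 3 counted members, Saa3 and Hp, were past 2-fold higher. The shares of all counted genes 2-fold higher were 9.49% in T-like, 6.70% in B-like and 6.03% in dendritic-like cells. Those 2-fold lower were 3.20%, 1.89% and 3.98%.

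**Figure D5:**
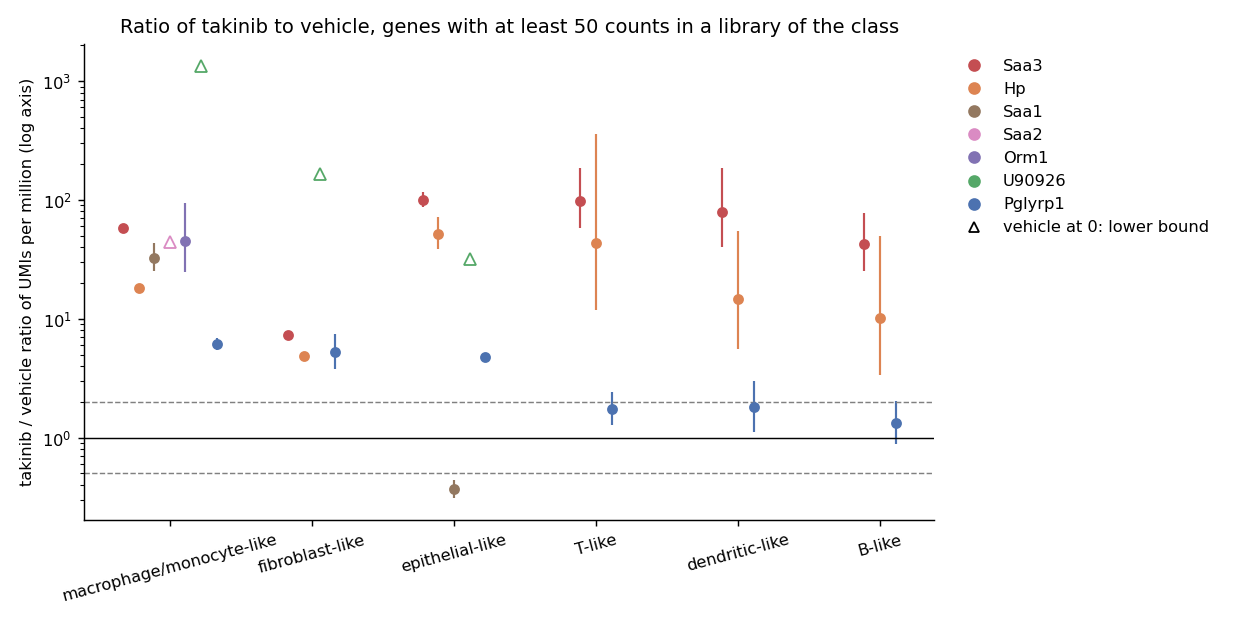
Ratio of takinib to vehicle CPM (log axis) for each counted member in the 6 classes that had 100 cells or more per library, with exact conditional binomial intervals; triangles are lower bounds against a floor of 3 counts. Ratios of Saa3 ran from 7.35 in fibroblast-like to 100 in epithelial-like cells, and Saa1 in epithelial-like cells was the value below 1, at 0.37.

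Erythroid-like cells numbered 557 in takinib and 2 in vehicle, and their cluster was led in part by the primary granule genes Mpo, Ctsg, Elane and Prtn3. Saa2 was highest in this class, with 221 UMIs in takinib, or 46.1 CPM, and 1.44% of its cells had any. Saa3 was at 4103 CPM and U90926 at 35.0 CPM. Because Saa1 and Saa2 are near copies, the division of counts between them is uncertain here too.

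The members were compared with all other genes across the 17 class and library points with at least 100 cells, by Pearson correlation of log2(CPM + 10) over 11421 genes. These points share 2 libraries and the neutrophil RNA described above, so the values describe likeness of pattern only. The gene most like Saa3 was Hp (r = 0.978), followed by the protease inhibitor gene Slpi (0.931), Bnip3 (0.906), the ferritin gene Fth1 (0.898) and Wfdc21 (0.896). For Hp they were Saa3, Fth1 (0.927), Slpi (0.925), Bnip3 (0.923) and the superoxide dismutase gene Sod2 (0.918). Saa2 was most like Elane (0.946), Saa1 most like Dgat2 (0.841), U90926 most like Dtnbp1 (0.839) and Cxcl1 (0.803), and Pglyrp1 most like S100g (0.857). Orm1 had too few points with counts.

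The other acute-phase proteins were read from a list of 24 genes. In macrophage/monocyte-like cells 10 were counted, of which 6 were 2-fold higher and 0 lower, with a median ratio of 2.35 against 0.99 for all counted genes. Lcn2, an iron-siderophore binding protein that is also a secondary granule gene, was at 11.7 CPM in vehicle and 1924 CPM in takinib, a ratio of 164. In T-like cells it was at 5.64 CPM and 1719 CPM, a ratio of 305, and in B-like cells at 5.07 and 306 CPM, a ratio of 60.4. The takinib macrophage level was thus near that of T-like cells and above that of B-like cells. Hamp, which encodes hepcidin, and Cd14, the co-receptor for lipopolysaccharide, had ratios of 13.8 and 3.15. At the low end were Cp (ceruloplasmin, 0.83), Lbp (0.93) and Serpina3n (1.19).

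In fibroblast-like cells 11 of the list were counted, 6 higher and 1 lower, with a median ratio of 2.02 against 0.93. Serpina3m, Lcn2 and Cd14 had the highest ratios there, at 23.3, 13.7 and 8.58. The takinib levels of Lcn2 (1571 CPM) and Cd14 (317 CPM) were below those of T-like cells, 1719 and 413 CPM. They were above those of B-like cells, 306 and 73.4 CPM. Lbp, the lipopolysaccharide-binding protein, was at 431 CPM in vehicle and 89.2 CPM in takinib, a ratio of 0.21, and thus went the other way from Saa3 and Hp in the same cells. In epithelial-like cells 8 were counted, 5 higher and 1 lower (Lbp, 0.42), with a median of 2.42 against 0.91. In T-like cells 4 of 6, in B-like cells 4 of 5 and in dendritic-like cells 2 of 3 counted genes were higher and 0 lower.

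Of 12 cytokines that induce the response, 9 were counted in macrophage/monocyte-like cells, with 5 higher and 2 lower. Csf3, the granulocyte growth factor, had 1 vehicle UMI and 993 takinib UMIs, a ratio of 436 [78.0, 17220]. Il17a and Ifng followed, at 28.1-fold and at least 9.21-fold higher. Il17a had 64 UMIs in these takinib cells against 1269 in T-like cells, where its level was 587 CPM. Lif (0.37) and Osm (0.42), both of the interleukin-6 family, were the 2 that were lower, and Il6 itself had a ratio of 1.69. In fibroblast-like cells 7 of 7 counted cytokines were higher, where 7.23% of all counted genes were, with Csf3 at 39.4, Il1b at 13.1 and Tnf at 12.0, and Il6 was at 19.9 CPM in vehicle and 130 CPM in takinib, a ratio of 6.52. Takinib Il1b and Tnf in fibroblast-like cells, at 472 and 31.1 CPM, were below their 952 and 71.2 CPM in T-like cells. They were above the 257 and 10.9 CPM of B-like cells, and the part of neutrophil RNA in them was not tested. In epithelial-like cells 5 of 7 were higher and 1 lower, where 7.63% of all counted genes were higher and 7.76% lower. In T-like cells 5 of 5 were higher, where 9.49% of all counted genes were. Their T-like vehicle counts were 15 for Il1b, 4 for Tnf, 1 for Il1a and 0 for Il17a and Osm. The part of neutrophil RNA in the T-like values was not tested.

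Of 13 receptors of these cytokines, 11 were counted in macrophage/monocyte-like cells, with 4 higher and 1 lower. The highest ratios were those of Il1r1 (9.64), the decoy receptor Il1r2 (4.25) and Csf3r (2.22), and the lowest that of Osmr (0.30). Il1r2 and Csf3r are also neutrophil genes of the tertiary granule list, of which 7 of 8 were higher in these cells, as were 6 of 8 of the secondary and 5 of 6 of the primary granule list. In fibroblast-like cells 4 of 11 counted receptors were higher and 0 lower.

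The transcription factors and regulators of the response had ratios nearer to 1 than the cytokines. Of 13, 11 were counted in macrophage/monocyte-like cells, with 0 higher and 1 lower, and a median ratio of 0.96. Nr3c1, the glucocorticoid receptor, Rela and Nfkbiz had the highest ratios, at 1.44, 1.28 and 1.23. Cebpd (0.47), Cebpa (0.50) and Gata6 (0.62) had the lowest. In fibroblast-like cells 2 of 10 were higher, the cytokine signalling inhibitor Socs3 (2.44) and Nfkbiz (2.41), and 1 was lower (Cebpa, 0.32). In epithelial-like cells Cebpb, at 197 and 735 CPM, and Socs3 were the 2 of 12 that were higher, with ratios of 3.74 and 3.17. Takinib Socs3 was at 119 CPM in epithelial-like and 171 CPM in fibroblast-like cells, where Nfkbiz was at 134 CPM. Takinib T-like cells had 698 CPM of Cebpb, 184 CPM of Socs3 and 175 CPM of Nfkbiz, and B-like cells 249, 66.2 and 74.3 CPM. The part of neutrophil RNA in these values was not tested.

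Receptors and partners of the members were counted in full, 14 of 14, in macrophage/monocyte-like cells, with 5 higher and 0 lower. Fpr1 and Fpr2, formyl peptide receptors of which the latter also binds serum amyloid A, were at 19.6 and 161 CPM and at 34.5 and 149 CPM, ratios of 8.22 and 4.32. Cd36 had a ratio of 4.01, and Cd163, the scavenger receptor that takes up haptoglobin with haemoglobin, one of 3.38. Trem1, a partner of Pglyrp1, stood 2.11-fold higher. The Toll-like receptor genes Tlr2 and Tlr4 had ratios of 1.18 and 1.04, and P2rx7, whose product serum amyloid A can also engage, one of 0.82. Of the peptidoglycan and lysozyme list, 5 of 8 genes were counted and 1 (Camp) was higher. Pglyrp2 had 66 UMIs in vehicle and 87 in takinib over all cells, and Pglyrp3 and Pglyrp4 had at most 49.

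Of 9 genes of alternative and hypoxic macrophages, 3 were higher in macrophage/monocyte-like cells and 1 lower. F13a1 was at 61.9 and 612 CPM, a ratio of 9.89, and leads the cluster that held most Saa3. Retnla, an alternative activation gene, had a ratio of 0.36.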

How the data were processed

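Raw UMI counts per gene and barcode were deposited by the authors for 1 vehicle and 1 takinib library. Per the file headers, the vehicle matrix was written by Cell Ranger 4 and the takinib matrix by cellranger 6.1.1, while the submitters' processing notes name Cell Ranger 2.1.1, STAR 2.0.4b, featureCounts 1.45 and the mm10 build, with no role given. The vehicle matrix held 704261 barcodes and the takinib matrix 34158, none under 500 UMIs, so the matrices had been filtered differently before deposit.

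The minimum per cell was 1000 UMIs and 500 genes, with mitochondrial UMIs of 20% or less, which left 9872 vehicle and 26790 takinib cells. Doublets were called with Scrublet. Its automatic threshold marked 3.18% of vehicle cells, and 314 were removed. It marked 0.00373% of takinib cells, which was taken as failure, and the 6% with the highest scores (1607) were removed instead. The joined libraries were clustered in scanpy 1.11.5 without the members (2000 variable genes, 30 components, 15 neighbours, Leiden resolution 1), into 27 clusters, named from marker lists. Macrophage and monocyte markers were read as 1 class, a choice made after seeing the clusters.

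Counts were summed per class and library and scaled to 1000000 UMIs per class and library (CPM). Intervals are exact Poisson for levels, Clopper-Pearson for shares, and conditional binomial for ratios, at 95%. A ratio against 0 uses a floor of 3 counts. Genes with at least 50 counts in a library of a class were counted, and 2-fold was the limit for a call. With 1 library per group there was no test. All 7 members are named. From each gene list the 3 highest and 3 lowest ratios, relatives and receptors could be named, and in addition Il6, Il1b, Cebpb and Mpo, Ctsg, Elane and Prtn3 were named after their values were seen. Genes like a member are its 5 highest correlations. The members and lists were chosen with earlier results of these data known. The 13 alternatives changed cell filters, doublets, clustering, naming, depth, scaling, added CPM, sex-linked selection and neutrophil subtraction. Ratios were tested on simulated data. Gene positions and transcripts come from the GENCODE annotation of GRCm38. Promoters and motif shares come from RefSeq tables, whose start for Pglyrp1 lies inside the GENCODE gene. Transcript identities were computed with Biopython 1.88. Hp and Orm1 promoters were not used here.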

Additional observations from a re-analysis of the deposited data

Results flagged for a closer look

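Saa1 in epithelial-like cells had a takinib to vehicle ratio of 0.37, whereas its ratio in macrophage/monocyte-like cells was 32.6, so that the same gene stood lower in one class and higher in another. The difference between the classes was not tested. Of the vehicle Saa1 UMIs, 77.3% lay in 88 cells of the Mptx1, Spink4 and Muc2 cluster, which had 11 takinib cells.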

How the results depend on the processing

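No paired analysis was possible because each group holds 1 library. Over 13 alternatives, 298 ratios of members were recomputed. Of these 209 moved by less than their counting interval, 27 were higher, 58 lower and 4 of those past 2-fold changed direction. Of 255 ratios past 2-fold higher, 252 remained past it. The 255 leave out Saa1 in epithelial-like cells, which was past 2-fold lower and is among the changes of direction. Allowing the members among the clustering genes left 25 of 25 within their interval. Those 4 were Saa1 in epithelial-like cells, at 1.43 with at most 10% mitochondrial UMIs and 8.03 against vehicle cells with Xist and no Y-linked UMI, and Pglyrp1 after neutrophil subtraction, at 0.0667 in fibroblast-like and 0.231 in macrophage/monocyte-like cells. Ratios of Pglyrp1 that were under 2-fold also crossed 1, at 0.80 in T-like, 0.93 in B-like and 0.98 in dendritic-like cells after subtraction and 0.79 in dendritic-like cells after thinning. The Saa3 ratio in macrophage/monocyte-like cells was 60.6 with at least 2000 UMIs and 1000 genes, 54.9 with cells thinned to 1000 UMIs, 57.2 with 10 CPM added and 63.3 against vehicle cells with Xist and no Y-linked UMI. Under the 2 alternatives chosen after seeing the data it was 20.7 with macrophage and monocyte markers held apart, where the F13a1 and Gpnmb clusters stayed unnamed, and 16.8 without the F13a1 cluster. The ratio of Saa2 in macrophage/monocyte-like cells was 1.60 with 10 CPM added, and that of Saa1 in epithelial-like cells was 0.0065 after subtraction, against 3 counts. The number of members past 2-fold with at least 50 counts was 4 in B-like cells with every cluster named and 4 in T-like cells with doublets kept. After neutrophil subtraction it was 1 in B-like, 1 in T-like and 1 in dendritic-like cells, because Hp, still past 2-fold, had under 50 counts there, and after thinning it was 1 in dendritic-like and 2 in fibroblast-like cells, where fewer counts were left. The causes of the other changes were not tested. The cell filters on UMIs and mitochondria and the sex-linked selection left too few B-like, T-like and dendritic-like cells for a value.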

Other observations

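Saa3 was evenly spread over the cells of 2 takinib clusters. An unnamed cluster of intestinal type led by S100g and Prap1 (68 takinib cells) had a median of 0.942% of UMIs from Saa3, with quartiles of 0.841% and 1.05%. An epithelial-like cluster led by Gkn2, Gkn1 and Tff1 (217 takinib cells) had a median of 0.859%, with quartiles of 0.716% and 1.05%. In the first of these, 19 of 68 cells had a U90926 UMI.

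An unnamed cluster led by Ctsk, Mmp9 and Siglecf had 251 vehicle cells and 86 takinib cells. Saa3 was at 74.2 CPM in vehicle and 1486 CPM in takinib there. By contrast, Hp was at 525 and 359 CPM and Pglyrp1 at 275 and 202 CPM, both lower in takinib in that cluster. Its takinib cells were fewer than the 100 required for a ratio, so these differences have no ratio or interval.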
